A study of Mus musculus with 24 samples.

Results

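The 43 genes described here drive or carry out the cell division cycle. They comprise 5 genes of G1 entry and the Rb axis, 4 inhibitors of cyclin-dependent kinases (CDKs), 18 genes of S phase and DNA replication, and 16 genes of G2 and mitosis. They were listed by symbol. Of these, 41 were found by the gene name in the scanner files, and 2 by accession under older names, Cdc45 as Cdc45l and Cdt1 as Ris2. Aurka, the Aurora A kinase, carried the older name Stk6 in the male-female files. The members had 64 probes in all, 17 of them had several probes, and where there were several the brightest was used. The 43 members were all measured after the filter on dim probes, among 24717 genes tested.

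A cell that commits to division passes from G1 into S phase when D-type cyclins with Cdk4 and then E-type cyclins with Cdk2 phosphorylate Rb1, which frees E2F transcription factors to switch on replication genes. Origins of replication are licensed in G1 by Cdc6 and Cdt1, which load the Mcm2-7 helicase, and in S phase Cdc45 joins the helicase while Pcna clamps the polymerases to DNA. Genes of G2 and mitosis follow later in the cycle, under promoters that often carry CCAAT boxes and cell cycle homology region (CHR) elements. In the urogenital sinus (UGS), the embryonic tube of endoderm and mesenchyme that gives rise to the prostate in males, androgen is known to start the outgrowth of epithelial buds before birth.

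RNA of C57/Bl6J mouse embryos (Jackson) was compared within pairs of pools, each made from several embryos, on 24 2-colour Agilent whole mouse genome arrays. Pregnant females were given 50 mg/kg of the androgen dihydrotestosterone (DHT) or vehicle at 16 dpc (days post conception), and the UGS of female embryos was collected 6 h later (4 pairs of pools, 8 arrays) or 12 h later (3 pairs, 6 arrays). Male and female littermates that had received nothing gave 5 further pairs at 17.5 dpc (10 arrays), which the labels also call the 48 h time point. Embryos were sexed by their gonads and accessory ducts were dissected away. Each pair was hybridised a second time with the dyes exchanged. Values are log2 ratios of DHT over vehicle or of male over female, each the mean of the dye-swapped arrays of a pair, so that −0.33 means a level 1.25-fold lower. The pair was the replicate. Pools may share litters as far as the labels say, so p-values cover only the spread between these pools. RNA of a whole tissue was measured, so fewer cells in division and less RNA per dividing cell cannot be told apart.

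The promoters of members that the results below turn on are shown first, because S phase and mitotic promoters differed in how often they held some motifs. The sequences are the 250 bases upstream of the start of the gene, from RefSeq on build GRCm38.p6. Cdk2 lies at chr10:128705052-128705301 on the minus strand, Mcm6 at chr1:128359706-128359955 on the minus strand, Rrm2 at chr12:24708004-24708253 on the plus strand, Top2a at chr11:99024190-99024439 on the minus strand and Cenpe at chr3:135212313-135212562 on the plus strand. Capitals mark matches on either strand to the E2F motif (TTTCCCGC, TTTCGCGC, TTTGCCGC or TTTGGCGC), the CHR motif (TTTGAA or TTTAAA) and the CCAAT motif. Cdk2, Rrm2 and Cenpe each passed the test in a comparison below, Mcm6 is a helicase gene and Top2a a mitotic gene. Neither of the latter is typical of its group. Mcm6 holds the most E2F matches of the helicase windows found, 3, and Top2a the most CCAAT matches of the mitotic windows, 6.
Cdk2: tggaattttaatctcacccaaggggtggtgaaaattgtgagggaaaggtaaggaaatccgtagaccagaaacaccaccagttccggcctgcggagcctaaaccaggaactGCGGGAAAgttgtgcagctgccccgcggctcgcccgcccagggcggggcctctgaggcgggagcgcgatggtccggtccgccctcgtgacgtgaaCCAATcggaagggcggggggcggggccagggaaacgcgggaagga
Mcm6: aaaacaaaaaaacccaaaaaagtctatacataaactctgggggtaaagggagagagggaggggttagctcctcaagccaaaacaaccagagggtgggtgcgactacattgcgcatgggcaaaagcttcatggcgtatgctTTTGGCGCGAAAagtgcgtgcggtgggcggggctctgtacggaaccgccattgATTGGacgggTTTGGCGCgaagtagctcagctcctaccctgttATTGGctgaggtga
Rrm2: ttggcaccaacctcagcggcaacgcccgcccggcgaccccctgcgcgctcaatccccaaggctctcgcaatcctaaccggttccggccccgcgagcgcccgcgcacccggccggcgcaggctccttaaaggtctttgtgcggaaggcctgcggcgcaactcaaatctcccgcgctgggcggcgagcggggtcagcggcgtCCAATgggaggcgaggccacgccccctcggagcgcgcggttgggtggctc
Top2a: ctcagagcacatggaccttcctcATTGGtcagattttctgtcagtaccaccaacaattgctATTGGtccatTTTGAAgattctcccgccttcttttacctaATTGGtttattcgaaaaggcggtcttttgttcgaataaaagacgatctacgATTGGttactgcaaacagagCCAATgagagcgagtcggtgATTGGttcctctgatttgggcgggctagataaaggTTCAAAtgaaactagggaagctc
Cenpe: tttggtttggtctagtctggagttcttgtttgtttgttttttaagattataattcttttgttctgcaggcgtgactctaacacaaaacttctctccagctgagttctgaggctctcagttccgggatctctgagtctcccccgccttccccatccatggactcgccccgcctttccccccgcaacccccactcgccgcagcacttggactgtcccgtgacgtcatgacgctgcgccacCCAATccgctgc

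Promoter windows were found for 35 of the 43 members. The Cdk2 window holds 1 E2F match, GCGGGAAA, between 140 and 133 bases before the start. The Mcm6 window holds 3 E2F matches, of which TTTGGCGC at 110 bases and GCGCGAAA at 106 bases before the start overlap. Top2a has 2 CHR matches and 6 CCAAT matches, whereas Rrm2 and Cenpe have 1 CCAAT match each and neither of the other motifs. The E2F motif occurred in 5 of 16 S phase promoters (31.2%), in 0 of 14 mitotic promoters and in 1.91% of the promoters of 27025 genes. The 5 were those of Cdk2, Cdc6, Mcm5, Mcm6 and Mcm7. The CHR motif occurred in 9 of 14 mitotic promoters (64.3%), in 25% of S phase promoters and in 25.5% of all promoters. The CCAAT motif occurred in 85.7% of mitotic, 68.8% of S phase and 34.5% of all promoters. A match describes letters in the window and does not show binding.

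**Figure D1:**
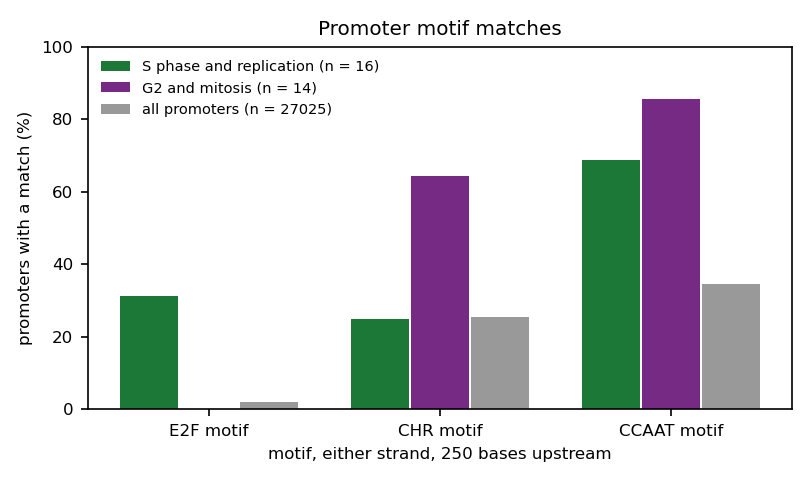
Share of promoters (vertical axis, percent) with at least 1 match to the E2F, CHR or CCAAT motif on either strand of the 250 upstream bases, for S phase members (n = 16), mitotic members (n = 14) and all genes with a promoter window (n = 27025). The E2F bar stands at 31.2% for S phase members and at 0 for mitotic members, and the CHR bar is highest for mitotic members at 64.3%.

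The data behind the ratios had limits that touch every result. Array medians of spot signal ran from 102.3 to 151.1 (Cy3) and from 98.14 to 146.2 (Cy5), and the probes used for members had no saturated spot. After the signs were turned, both arrays of a pair correlated across all genes, which are not independent replicates, at r = −0.5 to −0.0495 at 6 h, −0.197 to 0.163 at 12 h and 0.39 to 0.762 in the male-female pairs. Per the labels, each comparison was hybridised on a day of its own, so a difference in level between comparisons and a difference between days cannot be told apart. Marker genes of the tissue passed the filter (20 of 20 epithelial, 10 of 10 fibroblast and mesenchymal and 10 of 10 smooth muscle genes). Epithelial markers moved between pools. Their mean log2 ratio was −0.524, −0.428, −0.128 and −0.008 in pairs 1 to 4 at 6 h, −0.033, 0.388 and 0.512 at 12 h, and 0.046, 0.368, 0.504, 0.363 and 0.238 in males against females. At 6 h the Y-linked marker genes had mean ratios of −0.141, −1.272, −0.675 and −0.741, so the vehicle pools of pairs 2, 3 and 4, labelled female, held more Y-linked RNA than their DHT pools.

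Ratios of the members were small. The median absolute log2 ratio of the 43 members was 0.057 at 6 h, 0.084 at 12 h and 0.065 in males against females, beside 0.042, 0.054 and 0.041 over all genes. The ratio farthest from 0 was −0.33, that of Cdk2 at 6 h. In limma's test with Benjamini-Hochberg adjustment over all genes (threshold 0.05), 6 of the 43 members passed in at least 1 comparison and 0 passed in more than 1.

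**Figure D2:**
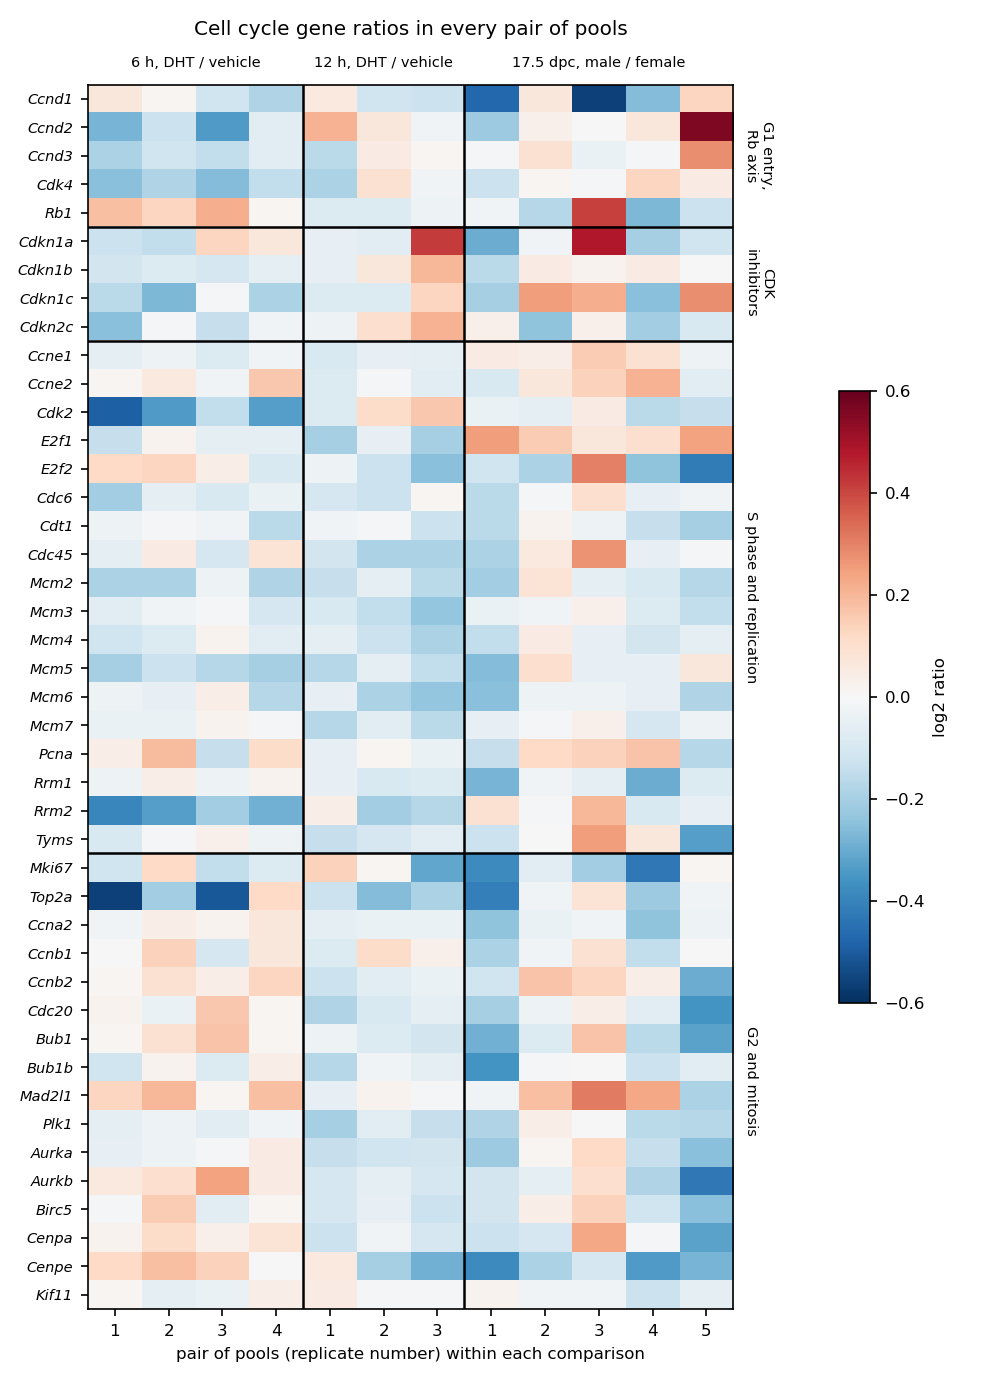
Heatmap of the log2 ratio (colour, DHT over vehicle or male over female) of the 43 members in rows, ordered by role, for each of the 12 pairs of pools in columns. The 12 h columns are mostly blue (below 0) in both the S phase and the mitotic block, Cdk2 and Rrm2 stand out in blue at 6 h, and pairs 1 and 3 of the male-female columns differ in colour across much of both blocks.

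At 6 h after DHT, Cdk2, Rrm2 and Cdk4 fell, by 0.33, 0.31 and 0.21 on the log2 scale, and no member rose. These 3 of 43 members (6.98%) stand beside 1.63% of all genes past the same threshold (1.14% lower and 0.485% higher). The unadjusted p was under 0.05 for 9 members (20.9%), all of them lower, beside 14.3% of all genes in either direction and 6.83% lower. Lower ratios were found in 28 members and higher ratios in 15, with a median of −0.037 beside 0.007 over all genes.

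Cdk2, the kinase that cyclin E activates at the start of S phase, had log2 intensities of 7.91, 8.01, 8.13 and 7.95 in the DHT pools of pairs 1 to 4. In the vehicle pools it had 8.41, 8.35, 8.28 and 8.28, so the groups did not overlap. Its ratio was −0.49, −0.34, −0.15 and −0.33 (mean −0.33 ± 0.14, SD, n = 4 pairs, limma adjusted p = 0.0131). A second, dimmer probe annotated to another Cdk2 transcript read −0.04, and the mean of both probes was −0.18 (limma adjusted p = 0.0211). At 6 h the dimmer probe was near background. It was well above background for the DHT pool on 1 of 8 arrays and for the vehicle pool on 3 of 8.

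Rrm2, the small subunit of ribonucleotide reductase, which makes deoxynucleotides for replication, had log2 intensities of 9.73, 9.63, 9.67 and 9.54 in DHT pools and 10.12, 9.96, 9.88 and 9.82 in vehicle pools. Again every DHT pool lay below every vehicle pool. The ratio was −0.39, −0.33, −0.21 and −0.29 (mean −0.31 ± 0.08, SD, n = 4, limma adjusted p = 0.0148). Arrays with the DHT pool in Cy5 and in Cy3 gave the same mean of −0.31. The partner subunit Rrm1 had a mean ratio of 0 at 6 h, with pairs between −0.03 and 0.04.

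Cdk4, the kinase of the D-type cyclins, had ratios of −0.25, −0.18, −0.26 and −0.15 (mean −0.21 ± 0.05, SD, n = 4, limma adjusted p = 0.0475). Its DHT pools lay at 8.63, 8.70, 8.65 and 8.64 and its vehicle pools at 8.88, 8.88, 8.91 and 8.79 on the log2 intensity scale. The arrays disagreed by dye. With the DHT pool in Cy5 the ratios averaged −0.43, and with it in Cy3 they averaged 0.01, so the fall rested on 1 dye orientation.

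With a pair left out the ratios moved little while the calls were lost in part. Cdk2 was at −0.27 without pair 1 (limma adjusted p = 0.112) and −0.32 without pair 2 (0.0832). Rrm2 was at −0.28 without pair 1 (limma adjusted p = 0.128) and −0.30 without pair 2 (0.0964). Cdk4 lay between −0.23 and −0.19 and lost its call without any 1 of the 4 pairs (limma adjusted p between 0.0816 and 0.267). Over all genes the same fits called 19 without pair 1 and 13 without pair 2, in place of 403. Pair 1, whose Y-linked mean was nearest 0 at 6 h, had the lowest Cdk2 and Rrm2 ratios of the 4, at −0.49 and −0.39. It also had the lowest epithelial, smooth muscle and skeletal muscle marker means, −0.524, −0.287 and −0.39. Its fibroblast and mesenchymal, red blood cell, immune, endothelial, and neuron and Schwann marker means were the highest, 0.14, 0.287, 0.287, 0.111 and 0.456. The part of embryo sex or tissue makeup in these ratios was not tested.

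Among the other G1 genes, the D-type cyclin Ccnd1 had ratios of 0.07, 0.01, −0.12 and −0.18 at 6 h (mean −0.06, limma adjusted p = 0.919). Ccnd2, another D-type cyclin, had −0.28, −0.13, −0.34 and −0.07, a mean of −0.21 like that of Cdk4 but with a wider spread (SD 0.13, limma adjusted p = 0.331). The dimmer Ccnd2 probes read −0.11 and −0.12, so the likeness held for the brightest probe only. Rb1, the pocket protein that holds E2F factors, had the highest mean of the group at 0.14, with pairs at 0.18, 0.13, 0.22 and 0.01. None of the 3 passed.

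The 4 CDK inhibitors had mean ratios between −0.16 and −0.02, and none passed. Cdkn1c (p57), an imprinted inhibitor, was at −0.16, −0.27, −0.01 and −0.19. Cdkn1a (p21), a target of p53, was at −0.13, −0.15, 0.13 and 0.07.

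Of the 18 S phase members, 14 had a negative mean at 6 h and 8 were below 0 in every pair (44.4%), beside 11.8% of all genes. Mcm2, a subunit of the helicase, was at −0.19, −0.19, −0.03 and −0.18 (mean −0.15 ± 0.08, SD, n = 4, limma adjusted p = 0.128). Mcm5 had a mean of −0.17 with an SD of 0.03 (limma adjusted p = 0.0961). The 6 helicase genes had means between −0.17 and −0.02. Pcna, at the other end of the group, was at 0.04, 0.19, −0.14 and 0.11, on both sides of 0.

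The 16 mitotic members had a median of 0.028 at 6 h, and 10 of them had a positive mean. None passed the test. In 5 of the 16 (31.2%) every pair was above 0, beside 12.8% of all genes. Mad2l1, a spindle checkpoint protein, had the highest mean, 0.13, with pairs at 0.13, 0.20, 0.01 and 0.18. Top2a, the topoisomerase that untangles sister chromatids, had the lowest mean, −0.29, and its pairs were far apart at −0.56, −0.21, −0.51 and 0.12 (SD 0.31, limma adjusted p = 0.16). Without pair 4 its mean was −0.43 (limma adjusted p = 0.0447). A second, dimmer Top2a probe read −0.12 over all pairs at 6 h. The proliferation marker Mki67 was at −0.12, 0.12, −0.15 and −0.08, and the mitotic cyclin Ccnb1 at 0, 0.14, −0.10 and 0.07. Neither held 1 sign over the pairs.

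At 12 h no member passed limma's adjusted threshold, beside 0.287% of all genes (0.113% higher and 0.174% lower), and the ratios leaned below 0 across S phase and mitosis alike. The unadjusted p was under 0.05 for 9 of 43 members (20.9%), all 9 lower, beside 14.1% of all genes in either direction and 7.92% lower. A negative mean was found in 36 of 43 members. Every pair was below 0 in 26 of them (60.5%), beside 18.6% of all genes, and every pair was above 0 in 0 members, beside 16.8%. The median over members was −0.075, beside 0.002 over all genes.

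The 6 genes of the Mcm2-7 helicase all had negative means at 12 h. Mcm6 was at −0.05, −0.19 and −0.23 (mean −0.16 ± 0.09, SD, n = 3, limma adjusted p = 0.205). Mcm3 was at −0.09, −0.15 and −0.23 (mean −0.15, limma adjusted p = 0.128), and Mcm2 at −0.14, −0.06 and −0.16 (mean −0.12). The 6 genes had means between −0.16 and −0.12, each with an unadjusted p under 0.05 and none past the adjusted threshold. With arrays centred on the median in place of loess the 6 means lay closer to 0, between −0.09 and −0.05. By dye, Mcm4 read 0.11 with the DHT pool in Cy5 and −0.37 with it in Cy3, while Mcm6 read −0.34 and 0.02.

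Elsewhere in S phase, Cdc45, the helicase partner, was at −0.11, −0.19 and −0.19, and E2f1, an E2F activator, at −0.20, −0.05 and −0.20 (mean −0.15, limma adjusted p = 0.176). Cdk2 was the 1 S phase member with a positive mean, 0.06, with pairs at −0.08, 0.11 and 0.16. Rrm2, lower at 6 h, was at 0.04, −0.21 and −0.17. Pcna was at −0.05, 0.01 and −0.04.

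In the mitotic group 14 of 16 members had a negative mean at 12 h and 11 were below 0 in every pair (68.8%). Top2a had the lowest mean, with pairs at −0.13, −0.26 and −0.19 (mean −0.19 ± 0.07, SD, n = 3, limma adjusted p = 0.482). A second, dimmer Top2a probe read −0.05. Ccnb1 had the highest mean, 0.02, but its 3 probes read 0.02, −0.21 and −0.01. Mki67 ran from 0.14 in pair 1 through 0.01 in pair 2 to −0.31 in pair 3.

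Of the 5 G1 genes 4 had a negative mean at 12 h, with a median of −0.041, and of the 4 CDK inhibitors 3 had a positive mean. Ccnd2 had a mean of 0.09, with pairs at 0.21, 0.07 and −0.02, and Ccnd1 was at 0.06, −0.12 and −0.13. The dimmer Ccnd2 probes read −0.01 and −0.04, on the other side of 0. Rb1, with a mean of −0.06, was at −0.08, −0.08 and −0.03. Of the inhibitors, Cdkn1a (mean 0.10) was at −0.05, −0.07 and 0.42, so that its mean came from pair 3, and Cdkn2c (p18, mean 0.10) was at −0.03, 0.10 and 0.21. Cdkn1c was at −0.08, −0.08 and 0.13. Pair 3 had the highest mean over the 4 inhibitors, 0.239, and also the highest epithelial marker mean, 0.512. Skeletal muscle markers at 12 h averaged 0.051, 0.349 and 0.673 in pairs 1 to 3, and red blood cell markers −0.263, −0.045 and −0.29. The part of tissue makeup in these ratios was not tested.

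In males against females at 17.5 dpc, E2f1 rose by 0.16 on the log2 scale, and Cenpe and Rrm1 fell by 0.26 and 0.15. These 3 of 43 members (6.98%) are close to the share of all genes that passed, 7.58% (3.72% higher and 3.86% lower), so the count of calls does not set the members apart. The unadjusted p was under 0.05 for 13 members (30.2%), 12 of them lower (27.9%), beside 18.5% of all genes in either direction and 9.79% lower.

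Cenpe, a kinesin that carries chromosomes to the spindle equator, had log2 intensities of 10.33, 10.56, 10.65, 10.43 and 10.77 in the male pools of pairs 1 to 5. The female pools had 10.71, 10.75, 10.75, 10.77 and 11.05, so the groups overlapped through pair 5 although every pair was lower in the male. The ratio was −0.38, −0.19, −0.10, −0.34 and −0.28 (mean −0.26 ± 0.11, SD, n = 5, limma adjusted p = 0.00731). Leaving out any 1 pair kept its call. The brightest probe is annotated to a full-length cDNA clone, and 2 dimmer probes annotated to the RefSeq transcript read −0.14 and −0.04. Averaged over its 3 probes the ratio was −0.15 and missed the threshold (limma adjusted p = 0.0896).

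E2f1 had log2 intensities of 7.78, 7.86, 7.58, 7.70 and 7.63 in males and 7.53, 7.71, 7.52, 7.60 and 7.39 in females, with overlap between the sexes. Its ratio was above 0 in every pair, at 0.25, 0.15, 0.07, 0.10 and 0.24 (mean 0.16 ± 0.08, SD, n = 5, limma adjusted p = 0.0173). A second probe read 0.09, and the mean of both probes, 0.13, missed the threshold (limma adjusted p = 0.0532). By dye the ratio was 0.29 with the male pool in Cy5 and 0.03 with it in Cy3. Without pair 1 or pair 5 the ratio was 0.14 in each case and missed the threshold (limma adjusted p = 0.0651 and 0.0637).

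Rrm1, the large subunit of ribonucleotide reductase, had log2 intensities of 10.83, 10.85, 10.81, 10.67 and 10.82 in males and 11.11, 10.87, 10.88, 10.97 and 10.91 in females, with no overlap. Its ratio was −0.28, −0.02, −0.06, −0.30 and −0.08 (mean −0.15 ± 0.13, SD, n = 5, limma adjusted p = 0.0402). Pairs 1 and 4 were the lowest, and the ratio was −0.12 without pair 1 (limma adjusted p = 0.138) and −0.11 without pair 4 (0.197). Rrm2, the subunit that fell at 6 h, was at 0.09, −0.01, 0.20, −0.09 and −0.05 in this comparison.

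**Figure D3:**
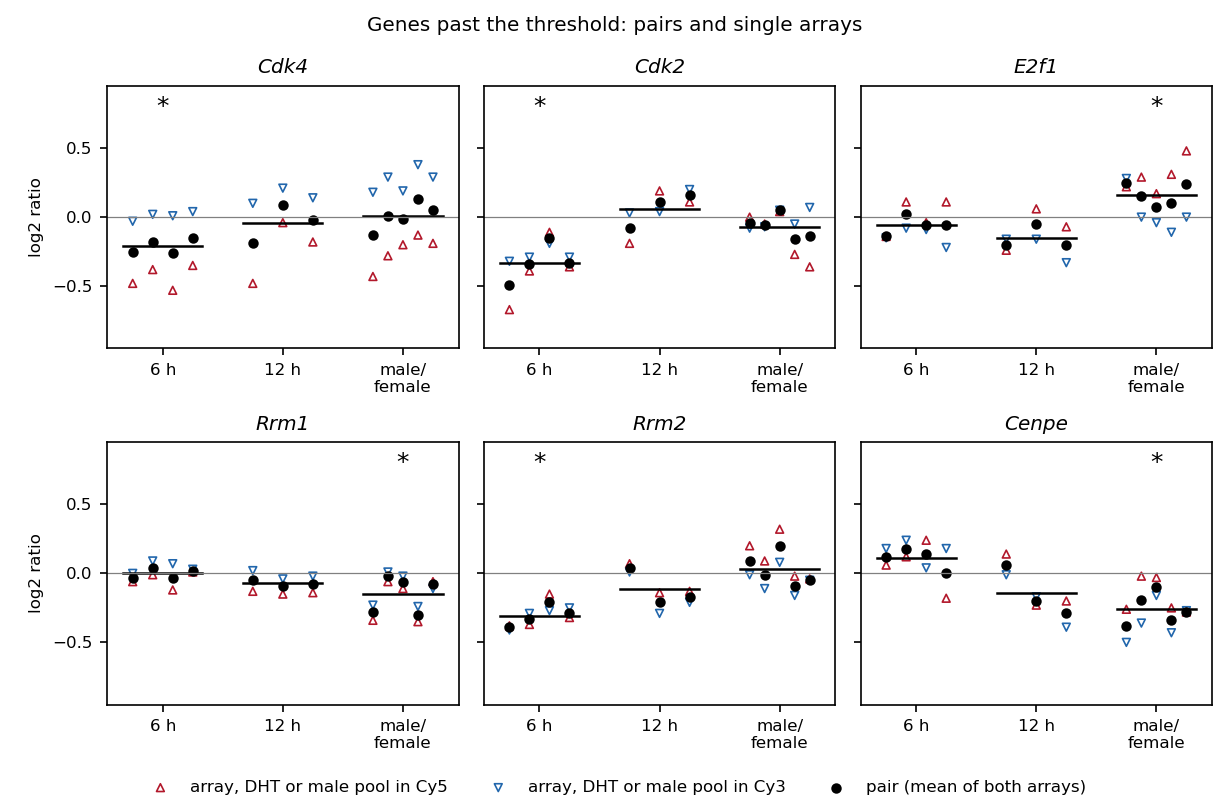
Log2 ratio (vertical axis) in each pair of pools for the 6 genes past the threshold in any comparison, with filled circles for pairs, open triangles for the single arrays by dye, lines for the mean over pairs and asterisks for limma adjusted p under 0.05. Upward and downward triangles are far apart for Cdk4 in all 3 comparisons and for E2f1 in most male-female pairs, and lie close together for Rrm2 at 6 h.

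The mitotic members were mostly lower in males. A negative mean was found in 15 of 16, beside 49.4% of all genes. The unadjusted p was under 0.05 for 8 of 16 (50%), all lower, beside 9.79% of all genes lower. Mki67 was at −0.38, −0.07, −0.21, −0.43 and 0.01 (mean −0.22 ± 0.19, SD, n = 5, limma adjusted p = 0.0898). Without pair 5 its mean was −0.27 and passed (limma adjusted p = 0.0451). Mad2l1 was the 1 mitotic member with a positive mean, 0.10, at −0.02, 0.18, 0.31, 0.23 and −0.19. Top2a was at −0.41, −0.02, 0.08, −0.22 and −0.02, and Ccnb1 at −0.19, −0.02, 0.09, −0.15 and 0. Some markers of other cell types fell in males too, where 3.86% of all genes fell. Smooth muscle markers had a mean of −0.203 (4 of 10 fell), fibroblast and mesenchymal markers −0.261 (3 of 10 fell) and immune cell markers −0.165 (3 of 10 fell, and the means of all 10 were negative). Their part in the mitotic ratios was not tested.

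The male-female pairs differed from each other. Pair 1 was low in most S phase and mitotic members, and pair 3 was above 0 in 12 of 18 S phase members. Pair 3 also had a skeletal muscle marker mean of 1.312, beside −0.447 to 0.211 in the other 4 pairs, and its epithelial marker mean of 0.504 was the highest of the 5. The part of those cells in the ratios was not tested. Without pair 3 the number of members past limma's threshold was 6, with E2f2 (−0.24), Bub1 (−0.21) and Aurkb (−0.19) added, and without pair 1 it was 1.

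Among the S phase members, 12 of 18 had a negative mean in males, including the 6 helicase genes. Mcm2 was at −0.21, 0.08, −0.06, −0.09 and −0.17 (mean −0.09, limma adjusted p = 0.275). Pcna was at −0.14, 0.12, 0.14, 0.17 and −0.17. The means of the 6 helicase genes lay between −0.11 and −0.03, and Mcm3 turned to 0.02 with median centring.

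Among G1 genes, Ccnd1 had the lowest mean, −0.22, from pairs at −0.47, 0.07, −0.56, −0.26 and 0.13 (SD 0.31, limma adjusted p = 0.179). Without pair 5 it was −0.30 (limma adjusted p = 0.0473). In pair 1, Ccnd1, Ccnd2, Mcm3 and Ccna2 each lacked the array with the male pool in Cy3, so their ratio there came from the other array alone. Ccnd2 had the highest, 0.09, from −0.22, 0.03, 0, 0.07 and 0.56. Of the inhibitors, Cdkn1c was at −0.20, 0.25, 0.22, −0.25 and 0.28, and Cdkn1a at −0.30, −0.02, 0.48, −0.20 and −0.12. Cdkn2c had the lowest mean, −0.10, from 0.03, −0.24, 0.03, −0.21 and −0.09. These ratios fell on both sides of 0 within each gene.

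S phase and mitotic genes were then set against each other within every pair, as the mean log2 ratio over the 18 and the 16 members. At 6 h the S phase mean was −0.111, −0.045, −0.053 and −0.077 in pairs 1 to 4, and the mitotic mean was −0.035, 0.054, −0.013 and 0.048. S phase thus lay below mitosis in 4 of 4 pairs, by 0.085 on average (difference −0.085 ± 0.036, SD, n = 4). The mitotic mean over pairs, 0.013 ± 0.044 (SD), turned to −0.023 with median centring, and the difference stayed at −0.081.

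At 12 h both means lay below 0 in every pair. The S phase mean was −0.089, −0.084 and −0.123, and the mitotic mean was −0.078, −0.059 and −0.103. The difference was small, −0.018 ± 0.007 (SD, n = 3), and it was 0 when all probes of a gene were averaged. With median centring the S phase mean over pairs went from −0.099 to −0.043 and the mitotic mean from −0.08 to −0.038.

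In males against females the order was turned round. The S phase mean was −0.104, 0.019, 0.08, −0.047 and −0.1 in pairs 1 to 5, and the mitotic mean was −0.208, −0.012, 0.066, −0.138 and −0.19. S phase lay above mitosis in 5 of 5 pairs (difference 0.066 ± 0.04, SD, n = 5). The means themselves depended on the settings. The S phase mean over pairs, −0.03, was −0.08 with median centring, 0.004 with the male pool in Cy5 only and −0.066 with it in Cy3 only, and the mitotic mean, −0.096, was −0.157, −0.062 and −0.131. Both means moved together from pair to pair, lowest in pair 1 and highest in pair 3, over a range wider than the gap between them. Over the alternative settings of scaling, filter, probe choice, fit, block and dye and with each pair left out in turn, the difference lay between −0.102 and −0.068 at 6 h and between 0.056 and 0.084 in males against females. These means describe the listed genes and carry no test.

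**Figure D4:**
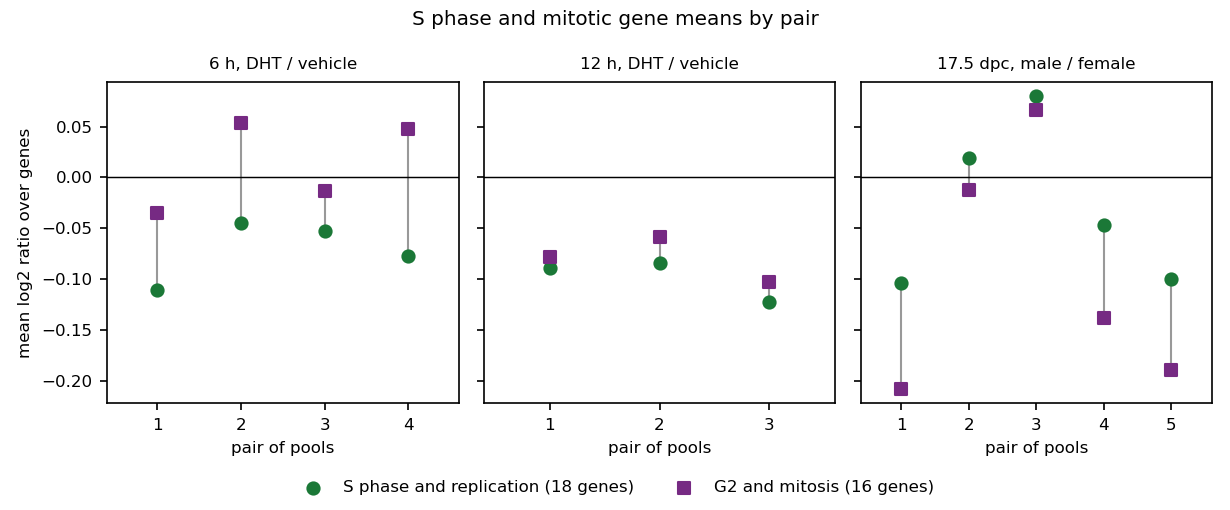
Mean log2 ratio (vertical axis) over 18 S phase members (circles) and 16 mitotic members (squares) in each pair of pools (horizontal axis), joined by a line within a pair, in 3 panels for 6 h, 12 h and male over female. Circles lie below squares in all 4 pairs at 6 h and all 3 at 12 h, and above them in all 5 male-female pairs.

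The S phase minus mitotic difference of every pair can be set beside its epithelial marker mean given above. The difference was −0.075, −0.099, −0.04 and −0.125 in pairs 1 to 4 at 6 h. It was −0.01, −0.025 and −0.02 in pairs 1 to 3 at 12 h. In males against females it was 0.104, 0.031, 0.015, 0.091 and 0.089 in pairs 1 to 5. The part of epithelial RNA in these means was not tested.

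Members whose ratio differed between comparisons were found with contrasts of the same fit. Between 6 h and the male-female comparison 3 of 43 passed, close to the 6.91% of all genes, so the count does not set the members apart. Rrm2 was lower at 6 h by 0.33 (difference −0.33, SE 0.07, limma adjusted p = 0.0128), E2f1 by 0.22 (difference −0.22, SE 0.06, limma adjusted p = 0.031), and Cenpe was higher at 6 h (difference 0.37, SE 0.08, limma adjusted p = 0.0129). The other 2 Cenpe probes read −0.06 and 0.02 at 6 h, beside −0.14 and −0.04 in males against females, and the difference given is that of the brightest probe. Between 12 h and the male-female comparison E2f1 alone of the members passed (difference −0.31, SE 0.06, limma adjusted p = 0.0221), beside 1.65% of all genes. Without pair 1 or pair 3 at 12 h it no longer did. Between 12 h and 6 h no member passed limma's threshold, beside 0.113% of all genes, and 7 had an unadjusted p under 0.05, beside 14.4% of all genes. Cdk2 came closest, with a ratio higher at 12 h by 0.39 (SE 0.08, limma adjusted p = 0.0802, unadjusted p = 0.000464). These contrasts span embryos of different age and treatment and separate hybridisation days.

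Other genes of the cycle, listed by role, were read from the same fit. Of 44 further S phase genes, all measured, 1 fell and 0 rose at 6 h (2.27%, near the 1.63% of all genes). The unadjusted p was under 0.05 for 12 of them (27.3%, beside 14.3% of all genes), 5 higher and 7 lower. The gene that fell was Dnmt1, the maintenance DNA methyltransferase that acts behind the replication fork, at −0.26 ± 0.11 (SD, n = 4, limma adjusted p = 0.0175). It missed the threshold without pair 1 (−0.22, limma adjusted p = 0.151), pair 2 (−0.27, 0.0872) or pair 3 (−0.25, 0.0613). At 12 h none of the 44 passed, although 13 had an unadjusted p under 0.05 (29.5%), all lower, beside 7.92% of all genes lower. In males 1 fell, Rpa1, a subunit of the single-strand binding complex (−0.16 ± 0.08, SD, n = 5, limma adjusted p = 0.0414), and 0 rose. That share, 2.27%, is under the 7.58% of all genes. Rpa1 missed the threshold without pair 1, 3, 4 or 5, at ratios between −0.16 and −0.13.

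Of 48 further genes of G2 and mitosis, all measured, none passed at 6 h or 12 h. At 12 h 11 had an unadjusted p under 0.05 and all 11 were lower (22.9%), beside 7.92% of all genes lower. At 6 h there were 5 (10.4%), of which 3 were higher, a share under the 14.3% of all genes. In males 7 fell (14.6%) and 0 rose, beside 3.86% of all genes lower. By adjusted p the first were Kif22, a chromosome-arm kinesin (−0.17, limma adjusted p = 0.0109), Cenpf, a kinetochore protein (−0.22, 0.0142), and Prc1, which bundles the midzone of the spindle (−0.17, 0.0144). Gtse1, a microtubule-binding protein (−0.20, 0.034), Incenp, the scaffold of the Aurora B complex (−0.18, 0.0414), and Ncapd2, a condensin subunit (−0.16, 0.0434), followed. With the male pool in Cy5 alone Cenpf read 0.02, Incenp −0.06 and Gtse1 −0.07, and with it in Cy3 alone they read −0.47, −0.30 and −0.34. When all probes of a gene were averaged, Cenpf was at −0.13 (limma adjusted p = 0.0974) and Ncapd2 at −0.16 (0.107). Kif22, Prc1, Gtse1 and Incenp kept their calls there. Without pair 4 none of the 6 passed, at ratios between −0.19 and −0.12 (limma adjusted p between 0.0547 and 0.207). Cenpf, Incenp, Gtse1 and Ncapd2 also missed the threshold without pair 1, Incenp and Ncapd2 without pair 2, Ncapd2 without pair 3, and Incenp, Gtse1 and Prc1 without pair 5.

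Of 26 further G1 regulators and brakes, 25 were measured. Tfdp1, the DNA-binding partner of E2F factors, fell at 6 h (−0.20 ± 0.06, SD, n = 4, limma adjusted p = 0.0126), with pairs between −0.29 and −0.16. That is 1 of 25 (4%), beside 1.63% of all genes. Tfdp1 was at −0.17 without pair 1 (limma adjusted p = 0.112), −0.21 without pair 2 (0.0765) and −0.12 as the mean of its probes (0.0803). None passed at 12 h, where 3 had an unadjusted p under 0.05 (12%, under the 14.1% of all genes). In males 3 of 25 passed (12%, beside 7.58% of all genes). E2f7, a repressive E2F, fell (−0.20, limma adjusted p = 0.0218), with −0.05 when the male pool was in Cy5 and −0.34 when it was in Cy3. It was at −0.15 without pair 1 (limma adjusted p = 0.0774) and −0.17 without pair 4 (0.113), and the mean of its probes was −0.13 (0.1). Gadd45a, a stress-induced brake, rose (0.28 ± 0.26, SD, n = 5, limma adjusted p = 0.041) with 4 of 5 pairs above 0 and the highest, 0.69, in pair 3. Without pair 3 it was at 0.17 (limma adjusted p = 0.0955), and it also missed the threshold without pair 1 (0.29, 0.0778) or pair 4 (0.26, 0.147).

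Mycn, a transcription factor that drives growth of embryonic progenitors, fell farthest of these genes. It was at −1.02, −0.71, −1.12, −0.68 and −1.14 in males against females (mean −0.93 ± 0.23, SD, n = 5, limma adjusted p = 6.2e-06), and it kept its call in 17 of 17 alternative settings. As the mean of its probes it was at −0.51 (limma adjusted p = 2.6e-05).

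The further lists repeated the order of S phase and mitosis in part. The difference between the mean of the 44 S phase and of the 48 mitotic genes was −0.010, −0.012, −0.047 and −0.039 at 6 h, 0.02, −0.017 and −0.023 at 12 h, and 0.052, 0.021, 0.019, 0.08 and 0.035 in males against females. It was thus below 0 in 4 of 4 pairs at 6 h, on both sides of 0 at 12 h, and above 0 in 5 of 5 male-female pairs. Averaged over pairs it was −0.027 ± 0.019 (SD, n = 4) at 6 h and 0.041 ± 0.025 (SD, n = 5) in males, nearer 0 than for the members in both.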

How the data were processed

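RNA pools were compared on 2-colour arrays as log2 ratios. The authors' scanner output was made with Agilent Feature Extraction 7.5.1, per the file headers, and gives each spot's intensity and local background in both channels, with a log10 ratio of Cy5 over Cy3 used here as an alternative. The deposited series matrix holds log2 values per probe that ran in the direction of the turned scanner ratios, with column medians between −0.0112 and 0.0108. How the authors scaled and centred those log2 values is not given in the sources used here.

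Mean signals were corrected with limma 3.58.1 in R 4.3.3 (normexp, offset 50; files read with data.table version 1.17.8) and normalised within arrays by loess, with control spots at weight 0 and outlier spots missing. Signs were turned to DHT over vehicle or male over female, and values were averaged over the spots of a probe and over both dye orientations of a pair. The log2 intensities of single pools took a further step. The mean intensity of both channels was quantile-normalised between arrays (limma, Aquantile), which leaves the ratios as they were. Probes well above background in either channel on 6 or more of the 24 arrays were retained (35477 of 41174). The brightest probe stood for a gene. Probe names were updated by accession, symbol or synonym.

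A single limma fit covered the 12 pairs, with a coefficient for each comparison, two-sided moderated tests and Benjamini-Hochberg adjustment over 24717 genes. SD is over pairs and SE is from the fit. A pair was missing in 42 genes, which the fit left out for that gene. On simulated data of 24675 genes, changes of 0.4 were recovered in 92.5% at 6 h, 83.6% at 12 h and 94% in the male-female comparison. Changes of 0.2 were recovered in 38.8%, 25.4% and 44.8%. The simulation had independent normal noise and 67 genes with each of these changes. It made 159, 147 and 166 calls, where the data gave 403, 71 and 1873. The adjusted threshold therefore fell elsewhere, and the recovered shares do not carry over to the data. The number of arrays limits the precision.

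Members, lists and alternatives were chosen with earlier results of these data known. Ratios of every pair are given for members past the threshold, for Mki67, Top2a, Pcna, Mcm2, Ccnb1, Ccnd1, Cdkn1a and Cdkn1c, and for the highest and lowest mean of each role group. Further genes past the threshold are named up to 6 per list and comparison by adjusted p. Mcm3, Mcm4, Mcm5, Cdc45 and the genes added when a pair was left out were named after their values were seen. Promoter windows came from a RefSeq table on GRCm38.p6. Their direction was checked on all windows by a pyrimidine-purine step at the start (46% and 46.6% by strand, 21% and 21.4% reversed).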

Additional observations from a re-analysis of the deposited data

Results flagged for a closer look

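Among 92 groups of 4 or 5 pairs looked at, 3 held 1 pair far from the others by Dixon's criterion, and chance would flag about 1 in 20. At 6 h, Cdt1, a licensing factor, was at −0.16 in pair 4 and between −0.03 and −0.01 in the other 3. At 6 h, Mcm2 was at −0.03 in pair 3 and between −0.19 and −0.18 in the others. In males against females, Cdkn1b (p27) was at −0.16 in pair 1 and between 0 and 0.05 in the other 4.

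The members E2f1, Rrm2 and Cenpe had ratios that differed between comparisons by a limma contrast adjusted over all genes. Between 6 h and males against females these 3 of 43 members were close to the share of all genes, 6.91%. Between 12 h and males against females E2f1 alone passed, beside 1.65% of all genes. E2f1 was lower at 6 h than in males against females by a difference of −0.22, with no pair of the latter below 0, and lower at 12 h by a difference of −0.31. Rrm2 differed by −0.33 between 6 h and males against females, where its pairs fell on both sides of 0. Cenpe differed by 0.37 between the same comparisons, with 3 of 4 pairs above 0 at 6 h and 5 of 5 below 0 in males against females, while its other 2 probes read −0.06 and 0.02 at 6 h and −0.14 and −0.04 in males against females.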

How the results depend on the processing

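Of the single-gene values recomputed under other settings, 2030 kept both their sign and their side of the threshold. These were values of the members and of the further genes past the threshold. Beyond that 132 changed sign with no call before or after, 128 lost a call and 31 gained one. In 4 the sign reversed where the value had a call before or after. The cause was not tested in any of them.

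The counts of all genes past the threshold depended strongly on the settings (403 at 6 h, 71 at 12 h and 1873 in males against females as reported). At 6 h they were 92 with median centring, 25 with the scanner software's ratios, 701 with the authors' deposited series matrix, 8 with each comparison fitted alone, 3784 and 3144 with the DHT pool in Cy5 or Cy3 only, 1318 with arrays entered singly and the pair as a random block, and 1 from replicate 1 alone, an alternative chosen after seeing the data whose single pair made so few calls that its counts say nothing about stability. At 12 h they were 0 without background correction, with the series matrix and with the comparison fitted alone, 21 with median centring, 47 with scanner ratios, 18 with probes above background on all arrays, 3185 and 1344 by dye, and 359 with arrays entered singly. In males against females they were 869 fitted alone and 3433 with the male pool in Cy3 only. With each pair left out in turn they ranged from 13 to 234 at 6 h, from 0 to 0 at 12 h and from 1143 to 1825 in males against females.

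Members past the threshold at 6 h, 3 as reported, numbered 1 with median centring, 0 with scanner ratios, fitted alone or from replicate 1 alone, 5 and 8 with the DHT pool in Cy5 or Cy3 only, and 5 with arrays singly. At 12 h there were 1 and 2 by dye (Cy5 and Cy3) and 1 with arrays singly, in place of 0. In males against females, 3 as reported, there were 1 with median centring, scanner ratios, the mean of all probes or the comparison fitted alone, and 9 with the male pool in Cy3 only. Leaving out a pair gave 0 to 3, 0 to 0 and 1 to 6. Between 6 h and males against females, 3 as reported, there were 1 with median centring, mean of all probes or Cy5 only, 9 with Cy3 only, 5 with arrays singly, and 1 (without 6 h pair 1) to 7 (without male-female pair 3) with a pair left out. Between 12 h and males against females, 1 as reported, there were 0 with median centring, scanner ratios, mean of all probes and either dye alone, and 0 to 1 with a pair left out. Between 12 h and 6 h, 0 as reported, there were 3 with Cy3 only and 1 with arrays singly, and 0 to 0 with a pair left out.

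The S phase mean at 6 h (−0.071) was −0.104 with median centring and −0.111 in replicate 1 alone, where the mitotic mean was −0.035. The mitotic mean at 6 h (0.013) was −0.023 with median centring, −0.01 with the replicate block and −0.008 with Cy3 only, and the S phase mean in males against females (−0.03) was −0.08 with median centring and 0.004 with Cy5 only. At 12 h the S phase mean (−0.099) was −0.043 with median centring and −0.069 and −0.128 by dye, and the mitotic mean (−0.08) was −0.038, −0.056 and −0.103. The 12 h difference between them (−0.018) was −0.006 with median centring, −0.027 with scanner ratios and 0 with the mean of all probes. With a pair left out the S phase means ranged from −0.08 to −0.058, −0.106 to −0.086 and −0.058 to −0.012 at 6 h, at 12 h and in males against females, the mitotic means from 0 to 0.029, −0.091 to −0.069 and −0.137 to −0.068, and the differences from −0.1 to −0.072, −0.022 to −0.015 and 0.056 to 0.079.

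Cdk4 reversed to 0.01 at 6 h with Cy3 only and to −0.25 in males against females with Cy5 only, Mcm6 reversed to 0.18 at 6 h with Cy3 only, and Cenpf to 0.02 in males against females with Cy5 only. Of the 17 settings tried for each, Cdk2 kept its call in 12, Rrm2 in 10, Cdk4 in 5, E2f1 in 10, Rrm1 in 10 and Cenpe in 15.

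The comparisons share replicate numbers, and the main fit did not treat same-numbered pools as paired. Differently numbered pairs were not correlated, so the values below cannot show whether the numbers pair the pools. Same-numbered pairs deviated together across genes at r = −0.0298 to 0.189 between 6 h and 12 h, −0.0687 to 0.137 between 6 h and males against females, and 0.00177 to 0.286 between 12 h and males against females. With the replicate block, 81 genes passed at 6 h and 6 at 12 h, members past the threshold at 6 h numbered 1, and the 12 h means were −0.123 for S phase and −0.109 for mitosis.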
